A study of Bos taurus with 6 samples.

Results

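The insulin-like growth factor (IGF) axis was represented by 10 genes out of the 32183 gene entries in the expression tables. They were taken by name and comprise the ligand genes IGF1 and IGF2, the receptor genes IGF1R and IGF2R, and the genes of the binding proteins IGFBP2, IGFBP3, IGFBP4, IGFBP5, IGFBP6 and IGFBP7. Each name had 1 entry per table. RNA was sequenced from rumen epithelial primary cells (REPC), which came from the rumen of a single Holstein bull calf, 2 weeks old and fed only milk replacer. The 3 butyrate cultures received 5 mM butyrate in the medium for 24 h, and the 3 control cultures were labelled as controls without further detail. All cultures therefore share 1 donor, and the p-values measure the spread between cultures of that donor, not between animals. The paper describes the groups as before and after 24 h of butyrate. It does not state whether the control cultures spent the same 24 h in culture. If they did not, time in culture and butyrate cannot be told apart. Expression was given as FPKM, the number of fragments scaled to transcript length and library size, which allows levels to be compared between genes of different length.

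IGF1 and IGF2 are secreted peptides that promote growth and survival, and they signal mainly through IGF1R, a receptor tyrosine kinase. IGF2R, the cation-independent mannose 6-phosphate receptor, binds IGF2 and carries it to the lysosome, and it also delivers newly made lysosomal enzymes. The IGFBPs are secreted proteins that hold IGFs outside the cell and either limit or prolong their access to the receptor, although IGFBP7 binds IGFs only weakly. Butyrate, a short-chain fatty acid made by rumen microbes, is both a fuel of the rumen wall and an inhibitor of histone deacetylases, and IGF signalling is among the pathways linked to growth of the rumen epithelium.

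After butyrate, members of this axis moved in both directions. IGFBP3, IGF2R, IGF2 and IGFBP2 rose, IGF1R, IGFBP4 and IGFBP6 fell, IGFBP5 and IGFBP7 did not pass the test, and IGF1 was listed at 0 in every culture. IGFBP3 rose most, and its mean FPKM was 18.8 ± 2.04 (SD, n = 3) in control and 92.4 ± 16.6 (SD, n = 3) after butyrate. IGF1R fell most, and its mean was 11.2 ± 0.432 (SD, n = 3) in control and 5.46 ± 1.01 (SD, n = 3) after butyrate. A gene was said to rise or fall when limma gave a Benjamini-Hochberg (BH) adjusted p under 0.05 over all 15813 tested genes, which had an average FPKM over the 6 cultures of 0.1 or more. By this rule 7 of the 9 tested members changed, 4 upward and 3 downward. Since much of the transcriptome differed between the groups, this count was read against the background: 58.4% of all tested genes passed in either direction, 32.5% upward and 25.9% downward. The groups did not overlap in 7 members, beside 65.0% of all tested genes. Of the 8420 tested genes that averaged 5 FPKM or more, as each of the 9 tested members did, 71.0% passed. The members' count was thus near the background, and their median log2 fold change of 0.10 was equal to the 0.10 of all tested genes to the second decimal. What follows concerns the direction and size for each member.

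The label of the cells was checked against marker genes. Of 14 epithelial markers 13 were tested, among them KRT8, KRT5 and CDH1, while EPCAM was at 0.737 or less in control and GRHL2 was at 0 there. The cultures also expressed genes usual in fibroblasts and smooth muscle, such as COL1A1 at 1109 to 1173 in control. The summed FPKM of the epithelial list was between 3367 and 3498 in control and between 6301 and 6352 after butyrate, and 9 of its genes rose and 1 fell. Its largest gains in mean FPKM were those of KRT19 (492.3 to 1953), KRT8 (1380 to 1971) and KRT14 (72.5 to 500.0). KRT5 fell, and CDH1, DSP and ITGA6 did not pass the test. The counts for all marker lists stand beside 32.5% of all tested genes that rose and 25.9% that fell. For the 10 fibroblast markers the sum was between 1924 and 1982 in control and between 2790 and 3038 after butyrate. All 7 of those tested rose, whereas PDGFRB, FAP and TCF21 were at or near 0. For the 5 smooth muscle markers it was between 6468 and 6796 in control and between 2849 and 3456 after butyrate, and 4 of them fell, while DES rose from a low level. The 5 endothelial markers summed to between 1.97 and 2.16 in control and between 6.48 and 8.43 after butyrate. PECAM1 and VWF, the 2 of them tested, both rose, while CDH5 was at 0 in all cultures. The 5 blood cell markers summed to between 4.61 and 6.92 in control and between 5.97 and 8.34 after butyrate, nearly all of it from CD14, which did not pass the test, and PTPRC, the pan-leukocyte marker, was at 0 in all cultures. IGF2 and several IGFBPs are made by mesenchymal as well as epithelial cells, and the part of these marker levels in the members' changes was not tested. In RNA from whole cultures, fewer cells of a type and less RNA per cell cannot be told apart.

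**Figure D1:**
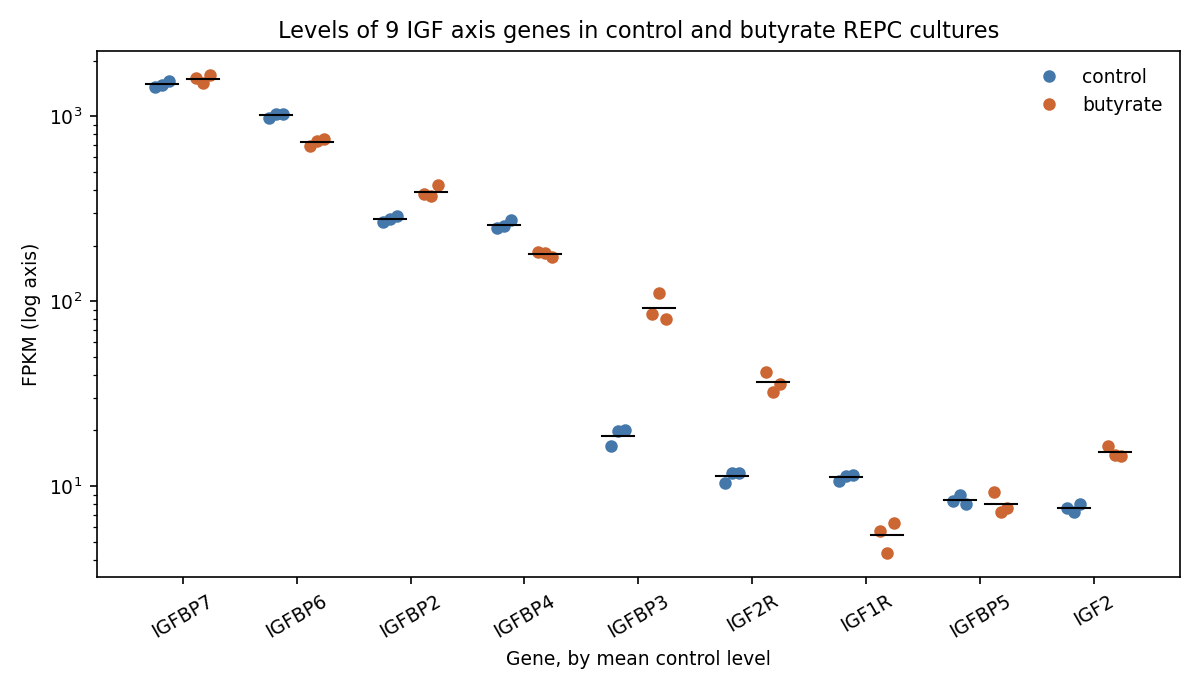
FPKM (log axis) of the 9 IGF axis genes with a value above 0, ordered by mean control level, with 1 point per culture (3 control, 3 butyrate) and a bar at each group mean. IGFBP7 and IGFBP6 stood above an FPKM of 690 in every culture, whereas IGF2, IGF1R and IGFBP5 stayed below 17, and the control and butyrate points overlapped for IGFBP7 and IGFBP5.

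The ligand genes differed in whether they were detected at all. IGF1, on chromosome 5 from 66523798 to 66604781 in the UMD3.1 coordinates of the tables, had an FPKM of 0 in all 6 cultures, so it was not tested and no fold change was given. A value of 0 in tables without counts says only that the gene was listed at 0. IGF2, on chromosome 29 from 50037872 to 50065231, had an FPKM of 7.59, 7.29 and 8.02 in controls 1, 2 and 3 and 16.5, 14.8 and 14.5 in the butyrate cultures of those numbers. Every butyrate culture was above every control culture. The mean went from 7.63 ± 0.364 (SD, n = 3) to 15.3 ± 1.07 (SD, n = 3), and the lowest butyrate culture was at 14.5 against 8.02 in the highest control. On the scale of log2(FPKM + 0.1), on which all fold changes were fitted, the change was 0.99 (SE 0.092, BH-adjusted p = 2.7e-05, limma).

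H19, a noncoding RNA gene that in mammals is imprinted reciprocally to IGF2, starts 85.5 kb after the end of IGF2 on the same chromosome. It moved the other way. Its FPKM was 13.9, 9.10 and 13.7 in the control cultures and 3.58, 3.90 and 4.47 after butyrate, with a log2 fold change of -1.58 (SE 0.18, BH-adjusted p = 8.8e-05, limma). The ratio of IGF2 to H19 FPKM within a culture was between 0.544 and 0.801 in control and at least 3.25 after butyrate. IGF2 was therefore the lower of the pair in each control culture and the higher in each butyrate culture. Both genes are measured here as total RNA of both alleles.

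The receptor genes had overlapping levels in control and moved apart. IGF2R lies on chromosome 9 from 97638102 to 97741388, and its FPKM was 10.4, 11.7 and 11.7 in controls 1, 2 and 3 and 41.2, 32.4 and 35.9 in the butyrate cultures of those numbers. All butyrate cultures were above all control cultures. The confidence bounds in the tables, which do not cover the variation between cultures, were 39.5 to 42.9, 31.0 to 33.9 and 34.3 to 37.5 for the butyrate cultures. The mean was 11.3 ± 0.789 (SD, n = 3) in control and 36.5 ± 4.41 (SD, n = 3) after butyrate. This is a 3.24-fold rise and a log2 fold change of 1.68 (SE 0.10, BH-adjusted p = 2.1e-06, limma). A higher fold change was found for 10.4% of all tested genes.

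IGF1R, on chromosome 21 from 7967701 to 8268340, spans 300.6 kb. Its FPKM was 10.7, 11.4 and 11.5 in control and 5.73, 4.35 and 6.32 after butyrate, so each butyrate culture was below each control culture, with replicate 2 the lowest. The mean fell to 48.7% of control, with a log2 fold change of -1.04 (SE 0.14, BH-adjusted p = 0.00029, limma). A lower fold change was found for 8.71% of all tested genes. Within a culture, the ratio of IGF2R to IGF1R FPKM was 0.968, 1.03 and 1.02 in control and 7.19, 7.46 and 5.68 after butyrate. The mean ratio thus went from 1.01 ± 0.0330 (SD, n = 3) to 6.78 ± 0.959 (SD, n = 3). The level of IGF2 rose less than that of IGF2R, and the ratio of IGF2 to IGF2R FPKM was 0.679 ± 0.0554 (SD, n = 3) in control and 0.420 ± 0.0307 (SD, n = 3) after butyrate.

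The insulin receptor gene INSR encodes the closest relative of IGF1R, with which its protein can form hybrid receptors. It was low throughout, with an FPKM of 1.25, 0.959 and 0.966 in control and 1.20, 1.63 and 1.66 after butyrate, and these groups overlapped (log2 fold change 0.46, SE 0.23, BH-adjusted p = 0.12, limma). The ratio of IGF1R to INSR FPKM was between 8.56 and 11.9 in control and between 2.67 and 4.77 after butyrate. INSRR, the insulin receptor-related receptor, is known as a sensor of alkaline pH outside the cell and does not bind insulin or IGFs. Its FPKM was 0.0292, 0 and 0.0398 in control and 2.58, 2.86 and 2.63 after butyrate. Its log2 fold change was 4.52 (SE 0.29, BH-adjusted p = 2.8e-06, limma), a size that rests on control values near 0 and on the pseudocount of 0.1.

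**Figure D2:**
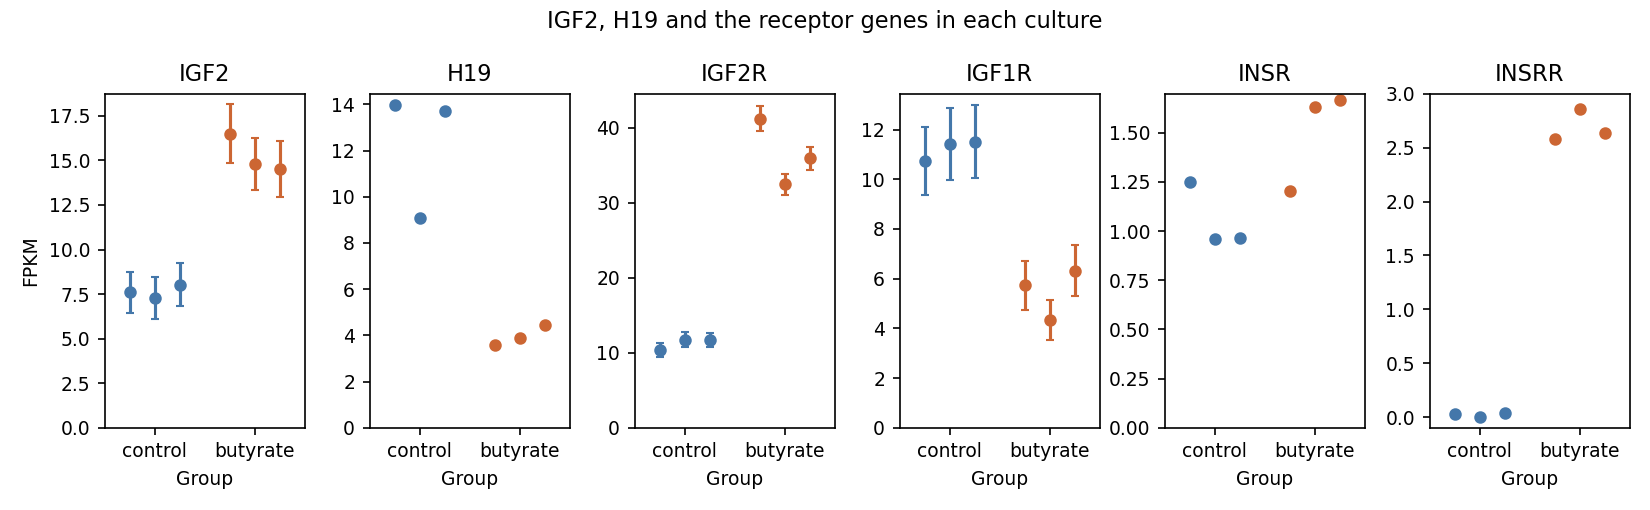
FPKM of IGF2, its neighbour H19, and the receptor genes IGF2R, IGF1R, INSR and INSRR, with 1 point per culture and a linear axis for each gene. Bars on IGF2, IGF2R and IGF1R are the confidence bounds given in the tables. IGF2R stood between 10.4 and 11.7 in control, beside IGF1R at 10.7 to 11.5, and after butyrate IGF2R was at 32.4 to 41.2 and IGF1R at 4.35 to 6.32.

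Of the binding proteins, IGFBP3 changed most. Its protein is the main carrier of IGFs in blood and is also made locally by many tissues. The gene lies on chromosome 4 from 76705105 to 76713511. The FPKM of IGFBP3 was 16.4, 19.8 and 20.1 in controls 1, 2 and 3 and 85.4, 111.4 and 80.4 in the butyrate cultures of those numbers. The lowest butyrate culture was thus at 80.4 and the highest control culture at 20.1. Replicate 2 had the highest value among the butyrate cultures. Its confidence bounds were 104.9 to 117.9, those of replicate 1 were 79.4 to 91.4 and those of replicate 3 were 74.6 to 86.2. The mean rose 4.92-fold, with a log2 fold change of 2.28 (SE 0.13, BH-adjusted p = 1.5e-06, limma). Without butyrate replicate 2 the log2 fold change was 2.14.

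IGFBP3 was also the 1 member called a differentially expressed gene (DEG) with the study's own thresholds, which ask for p under 0.05 after Bonferroni correction together with a log2 change beyond 2 in size (limma, Bonferroni-adjusted p = 0.0010). Here the thresholds were applied to limma, whereas the study applied them to its Cufflinks test, so the call is not the study's own. They were passed upward by 389 genes, 2.46% of all tested, and downward by 238 genes, 1.51%. Both counts are lower than those the study reported. IGF2R and IGFBP6 passed the Bonferroni correction, as 12.8% of all tested genes did with IGFBP3 among them, but not the threshold on fold change. For IGFBP6 this depended on the settings: its Bonferroni-adjusted p in limma was 0.032, against 0.17 in TPM, 0.63 with quantile normalization and 0.17 to 0.45 with single cultures left out. The pass was also lost with a pseudocount of 0.01 (limma, Bonferroni-adjusted p = 0.064), without the trend and without the filter. IGF2R lost it without the trend, without the filter and without butyrate replicate 3 (limma, Bonferroni-adjusted p = 0.061). IGF2 and IGFBP4 did not pass the correction (limma, Bonferroni-adjusted p = 0.056 and 0.073), but did when only genes averaging 1 FPKM or more were tested (limma, Bonferroni-adjusted p = 0.023 and 0.030), and IGF2 did in TPM too. IGFBP2 did not pass it (limma, Bonferroni-adjusted p = 0.25), but did in TPM and with quantile normalization (limma, Bonferroni-adjusted p = 0.031 and 0.024). The call of IGFBP3 as a DEG was lost when limma was run without the mean-variance trend and when genes with low values were kept, while its rise passed the Benjamini-Hochberg threshold in each alternative fit.

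**Figure D3:**
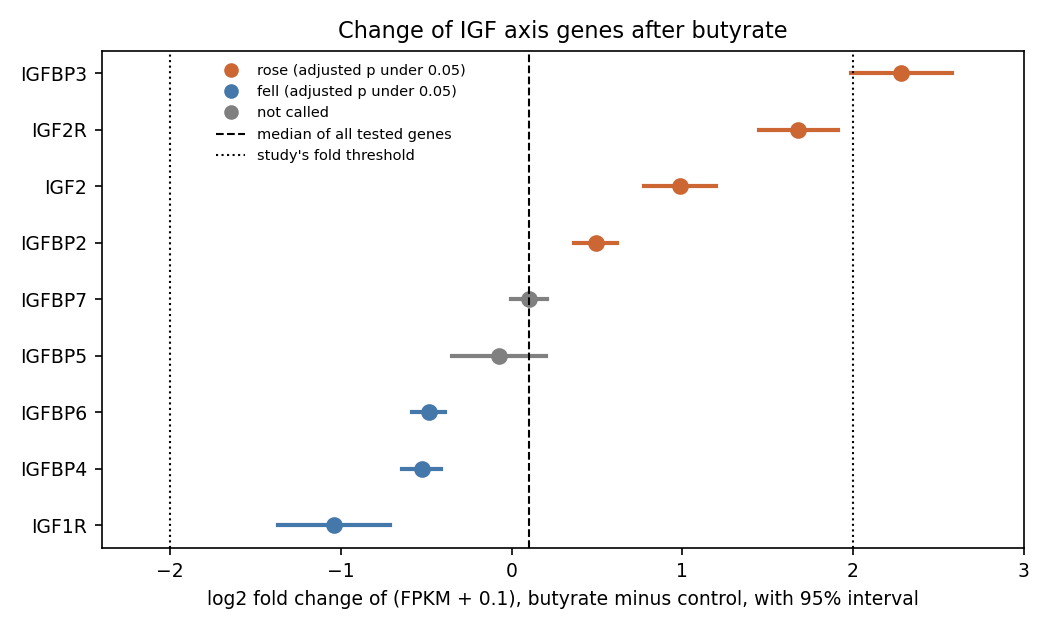
log2 fold change of FPKM + 0.1 (butyrate minus control) of the 9 tested members, with the 95% confidence interval from limma. The dashed line is the median of all 15813 tested genes at 0.10 and the dotted lines are the study's fold thresholds of 2 and -2. IGFBP3 lies at 2.28 and IGF1R at -1.04, and the intervals of IGFBP7 and IGFBP5 include 0.

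IGFBP2 and IGFBP5 lie beside each other on chromosome 2, with 7.54 kb between the end of IGFBP2 (105338358 to 105367086) and the start of IGFBP5 (105374629 to 105397832). Their levels were far apart. IGFBP2, a binding protein with a preference for IGF2, had an FPKM of 267.9, 278.4 and 287.6 in control and 378.7, 372.5 and 423.0 after butyrate. All butyrate cultures were higher, by 1.41-fold on average, with a log2 fold change of 0.49 (SE 0.056, BH-adjusted p = 8.8e-05, limma). IGFBP5, which binds extracellular matrix as well as IGFs, had 8.27, 8.98 and 8.02 in control and 9.30, 7.21 and 7.64 after butyrate. Here the groups overlapped, and the log2 fold change of -0.07 had a 95% interval from -0.35 to 0.20 (BH-adjusted p = 0.63, limma). A change of IGFBP5 as large as that of its neighbour lies outside this interval. The ratio of IGFBP2 to IGFBP5 FPKM was between 31.0 and 35.9 in control and between 40.7 and 55.4 after butyrate.

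IGFBP4 and IGFBP6 fell. IGFBP4, an inhibitor of IGF action that proteases can cleave, lies on chromosome 19 from 41326678 to 41338267. Its FPKM was 248.8, 255.2 and 275.5 in control and 185.3, 182.1 and 173.4 after butyrate, with no overlap (log2 fold change -0.53, SE 0.051, BH-adjusted p = 3.3e-05, limma). IGFBP6, which binds IGF2 with a marked preference over IGF1, lies on chromosome 5 from 27044002 to 27048062. Its FPKM was 983.9, 1030.6 and 1030.6 in control and 690.2, 735.6 and 752.0 after butyrate. The equal values of control replicates 2 and 3 had different confidence bounds. The butyrate cultures were again all lower (log2 fold change -0.48, SE 0.042, BH-adjusted p = 1.7e-05, limma). In relative terms the mean of IGFBP4 decreased by 30.6% and that of IGFBP6 decreased by 28.5%. Both falls were smaller in size than the changes of IGFBP3, IGF2R, IGF1R and IGF2.

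IGFBP7 was the most abundant member, at an FPKM of 1447, 1471 and 1557 in control and 1602, 1520 and 1680 after butyrate. It lies on chromosome 6 from 74071064 to 74150456, and its entry overlaps that of POLR2B at its start. POLR2B had a mean FPKM of 14.9 in control and 19.1 after butyrate, small beside IGFBP7. The groups of IGFBP7 overlapped, since butyrate replicate 2 was below control replicate 3. Its log2 fold change of 0.10 had a 95% interval from -0.0038 to 0.21 (BH-adjusted p = 0.089, limma). It passed the threshold when FPKM was rescaled to TPM (log2 fold change 0.22, BH-adjusted p = 0.0024, limma), without butyrate replicate 2 and without control replicate 3, and its sign turned with quantile normalization.

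As the level per length differed so widely between the binding proteins, their sum was set mostly by IGFBP7 and IGFBP6. The 6 genes together had 3072 ± 103.3 (SD, n = 3) in control and 2998 ± 102.5 (SD, n = 3) after butyrate, and the groups overlapped. After rescaling to TPM the butyrate sum was the higher, at 4803 against 4518. The make-up of the sum differed. IGFBP6 made up 33.1% ± 0.607 (SD, n = 3) of the sum in control and 24.2% ± 0.868 (SD, n = 3) after butyrate, and IGFBP4 8.46% ± 0.185 (SD, n = 3) and 6.02% ± 0.395 (SD, n = 3). The share of IGFBP2 went from 9.05% ± 0.0373 (SD, n = 3) to 13.0% ± 0.465 (SD, n = 3), that of IGFBP3 from 0.611% ± 0.0505 (SD, n = 3) to 3.09% ± 0.636 (SD, n = 3), and that of IGFBP7 from 48.6% ± 0.496 (SD, n = 3) to 53.4% ± 1.29 (SD, n = 3). IGFBP5 stayed below 0.32% in each culture. IGFBP6 and IGFBP7 together supplied 81.6% ± 0.196 (SD, n = 3) of the sum in control and 77.6% ± 0.519 (SD, n = 3) after butyrate. Despite its rise, IGFBP3 remained the fifth of the 6 by level.

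**Figure D4:**
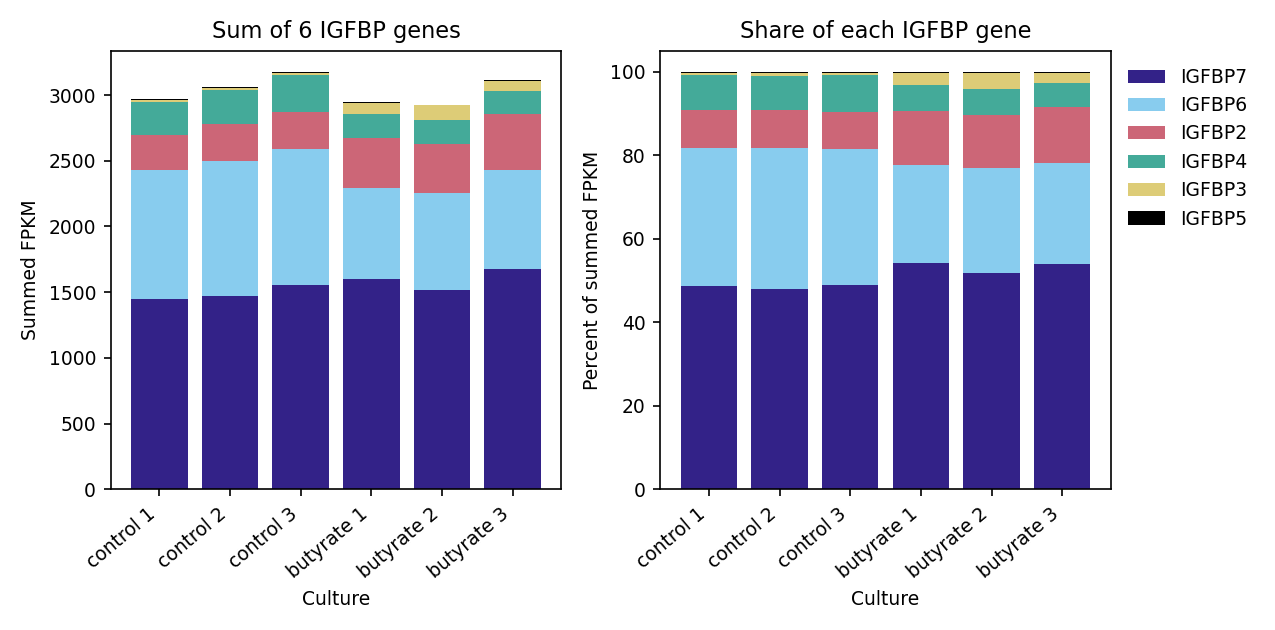
Summed FPKM of the 6 binding protein genes in each culture (left) and the percentage each gene contributed to it (right), as stacked bars. The sums lay between 2928 and 3179 in all 6 cultures, while the IGFBP6 part was between 32.4% and 33.6% in control and between 23.4% and 25.1% after butyrate.

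The order of the members by mean FPKM in control was IGFBP7, IGFBP6, IGFBP2, IGFBP4, IGFBP3, IGF2R, IGF1R, IGFBP5 and IGF2. Neighbours in this order did not overlap between cultures except IGFBP2 with IGFBP4 and IGF2R with IGF1R. The lowest IGFBP5 and the highest IGF2 control value were both 8.02 when rounded, so that pair was barely apart. IGFBP7 ranked 41 and IGFBP6 ranked 81 among the 15813 tested genes. After butyrate the order was the same down to IGF2R, followed by IGF2, IGFBP5 and IGF1R, and no neighbours overlapped. IGFBP3 moved from rank 4524 to 1217, IGF2R from 5946 to 2775 and IGF1R from 5966 to 8110. The spread between control cultures was at most 10.8% of the mean (CV, IGFBP3), and after butyrate it reached 18.5% for IGF1R and 18.0% for IGFBP3.

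Counts were not given in the tables. If the confidence bounds lay 2 counting standard deviations from each value, they would imply 34.9 to 41.3 fragments for IGFBP5. The same conversion gave 118.5 to 247.7 for IGF1R and 2853 to 4330 for IGFBP4. These numbers followed FPKM in some members but not in all. For IGFBP3 they were 161.0 at an FPKM of 16.4 in control replicate 1 and 814.2 at 85.4 in butyrate replicate 1. For IGFBP6 they differed less than FPKM, at 1643 for an FPKM of 983.9 in control replicate 1 and 1459 for 690.2 in butyrate replicate 1. The bounds therefore cannot be read as counting error alone for every gene, nor the numbers as counts. Relative to the value, the bounds were widest for IGFBP5. Summed over all entries, the conversion gave between 5756610 and 6186810 per culture, which is not a measured depth.

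The genes whose pattern over the 6 cultures was nearest to that of IGFBP3, by the Euclidean distance of their centred log2 values among 13240 other named entries, were FIBIN, IGSF8 and TPBGL, at distances of 0.179, 0.239 and 0.242. Their log2 fold changes were 2.32, 2.43 and 2.31, against 2.28 for IGFBP3. FIBIN, IGSF8 and TPBGL shared with IGFBP3 a highest butyrate value in replicate 2, at an FPKM of 3.69, 78.8 and 0.487. A like fold change and a like order of cultures follow largely from how these genes were picked. TPBGL was at 0 in all control cultures and at 0.487 or less after butyrate, so its place rests on low values.

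Other genes around the axis were taken from 7 lists with 93 genes, of which 83 were tested. Of these, 25 rose and 24 fell, which is 59.0% called, beside the 58.4% of all tested genes, so the pathway as a whole did not stand out by its number of changes. By direction, 30.1% rose and 28.9% fell, beside 32.5% and 25.9% of all tested genes. The counts of the single lists stand beside the same background shares. Genes related to the binding proteins ranged widely in level, from CTGF at a mean FPKM of 1084 in control to WISP3 at 0 in all cultures. Of the 10 tested, 4 rose and 4 fell, with a median log2 fold change of 0.40. CTGF and NOV, of the matrix-associated CCN family, rose from 1084 ± 44.6 (SD, n = 3) to 1612 ± 52.9 (SD, n = 3) and from 324.7 ± 3.07 (SD, n = 3) to 634.2 ± 26.8 (SD, n = 3). WISP2 of the same family fell, with FPKM of 153.6, 161.4 and 166.4 in control and 70.3, 60.9 and 66.4 after butyrate (log2 fold change -1.29, SE 0.062, BH-adjusted p = 6.5e-07, limma). CYR61 also fell, by a log2 fold change of -0.25. ESM1, a secreted proteoglycan with a domain like that of the IGFBPs, fell from 107.4 ± 8.03 (SD, n = 3) to 13.4 ± 0.405 (SD, n = 3), a log2 fold change of -2.99 (SE 0.070, BH-adjusted p = 3.2e-08, limma). KAZALD1, another secreted protein with such a domain, rose but stayed below an FPKM of 0.48. IGFALS, the acid-labile subunit that stabilises the complex of IGF with IGFBP3 or IGFBP5, rose from 8.72 ± 1.45 (SD, n = 3) to 12.7 ± 1.26 (SD, n = 3) (log2 fold change 0.55, SE 0.14, BH-adjusted p = 0.0081, limma). IGFBP1, a binding protein known mainly from liver, begins 6.91 kb after IGFBP3 and was at 0 in 5 cultures and at 0.0555 in control replicate 2, too low to be tested.

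Among proteases that cleave binding proteins and their inhibitors, 2 of the 7 tested rose and 2 fell. The lysosomal protease gene CTSD rose in FPKM from 402.1 ± 8.39 (SD, n = 3) to 683.0 ± 25.5 (SD, n = 3), and the secreted serine protease gene HTRA1 from 1076 ± 4.78 (SD, n = 3) to 1358 ± 101.3 (SD, n = 3). ADAM12, a metalloprotease that can cleave IGFBP3 and IGFBP5, fell with a log2 fold change of -1.34 (SE 0.13, BH-adjusted p = 2.9e-05, limma), and ADAMTS1 fell with -0.56. PAPPA and PAPPA2, metalloproteases that cleave binding proteins, were listed at 0 in all 6 cultures. STC1, an inhibitor of PAPPA, did not reach the minimum mean, and STC2, another, had a log2 fold change of 0.58 that did not pass (BH-adjusted p = 0.11, limma).

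In the insulin receptor family and its adaptors, 4 of the 12 tested genes rose and 3 fell. Beside INSRR, IRS1, the docking protein that carries the signal from IGF1R and INSR to PI3K, rose from 3.62 ± 0.318 (SD, n = 3) to 7.37 ± 0.905 (SD, n = 3) (log2 fold change 1.00, SE 0.14, BH-adjusted p = 0.00027, limma). PTPN11, the phosphatase SHP2, fell with a log2 fold change of -1.01. IRS2 was low and did not pass the test (log2 fold change 0.25, BH-adjusted p = 0.57, limma).

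Of the 34 genes of the PI3K-AKT-mTOR arm, 10 rose and 9 fell, and their median log2 fold change was -0.0036. The largest changes among those called were at low levels. PIK3CD, a catalytic subunit of PI3K best known from white blood cells, went from 0.297 ± 0.267 (SD, n = 3) to 2.94 ± 0.428 (SD, n = 3). DEPTOR, an inhibitor of mTOR, was listed at 0 in all control cultures and was at 0.230, 0.418 and 0.582 after butyrate. TSC2, another inhibitor of mTOR signalling, rose with a log2 fold change of 0.93, while AKT1 fell with -0.63 and the FPKM of PIK3CA fell from 7.56 ± 0.573 (SD, n = 3) to 3.72 ± 0.305 (SD, n = 3).

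The remaining lists were small. IGF2BP2 and IGF2BP3, RNA-binding proteins that attach to IGF2 mRNA, rose with log2 fold changes of 0.27 and 0.51, and IGF2BP1 did not pass (BH-adjusted p = 0.51, limma). Of the 8 genes of the growth hormone arm, which drives IGF1 in liver, 2 rose and 2 fell, namely SOCS3, CISH, STAT5B and SOCS2, with log2 fold changes of 0.54, 0.81, -0.97 and -0.47. The growth hormone receptor gene GHR stayed below an FPKM of 0.40. In the mannose 6-phosphate pathway that IGF2R serves, M6PR, the smaller receptor of this kind, rose with a log2 fold change of 0.32, whereas GNPTAB and NAGPA, which make the mannose 6-phosphate tag, fell with -0.52 and -0.91. TMEM219, a proposed receptor for IGFBP3, fell with -0.31.

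**Figure D5:**
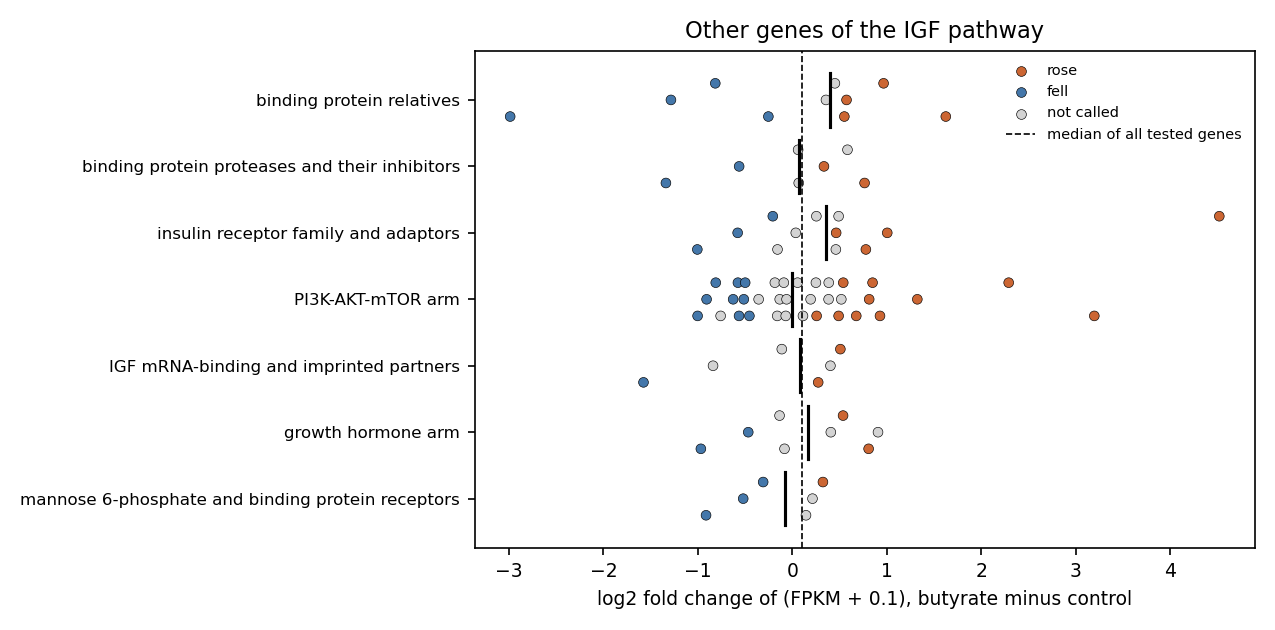
log2 fold change of FPKM + 0.1 (butyrate minus control) of the 83 tested genes in the 7 lists, 1 point per gene, with the median of each list as a vertical bar and the median of all tested genes as a dashed line. Points lie on both sides in each list, from ESM1 at -2.99 to INSRR at 4.52.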

How the data were processed

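Per the labels and the study's methods, RNA of 6 REPC cultures was prepared with a TruSeq RNA kit and sequenced in pairs. The authors trimmed reads with Trim Galore 0.4.1, aligned them with STAR, kept uniquely mapped reads and deposited gene FPKM from Cufflinks with confidence bounds. The build in the submitters' processing notes is UMD3.1, and starts, which the tables count from 0, are given from 1. The methods do not state strand, so reads of overlapping genes cannot be told apart. The FPKM of a culture added up to 678035 to 681912 for control cultures and 619401 to 629037 for butyrate cultures. Counts were not given.

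Tables were joined by gene name and position, and 2 entries with a failed estimate were left out. limma 3.58.1 (R 4.3.3, mean-variance trend, two-sided) was fitted to log2(FPKM + 0.1) of the 15813 entries with a mean FPKM of at least 0.1, with Benjamini-Hochberg or Bonferroni adjustment over all of them. This scale understates changes of low genes. With 3 cultures against 3, an exact permutation test cannot go below p = 0.1, so none is given. The script was tested on simulated data. The members and lists were chosen with earlier results of these data known. Named genes are the members, the 3 called genes with the largest change in each list, the 3 genes nearest in pattern to the most changed member, and the markers; others were named after their values were seen. A list gene with several entries was counted once, at its highest mean. Alternatives were other pseudocounts, filters, scalings, no trend, a replicate block, and omission of single cultures. ADAM28 was not matched. Single values of some list genes are not reported here.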

Additional observations from a re-analysis of the deposited data

How the results depend on the processing

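The rises of IGFBP3, IGF2R, IGF2 and IGFBP2 and the falls of IGF1R, IGFBP4 and IGFBP6 kept their direction and an adjusted p under 0.05 in all 14 alternative fits. Rescaling to TPM moved the median of all tested genes by 0.12 on the log2 scale and quantile normalization by -0.15, and IGFBP6 ranged from -0.51 to -0.27 and IGFBP2 from 0.43 to 0.73 over the alternatives. IGFBP7 passed at 0.22 in TPM and its sign turned, at -0.010, with quantile normalization. IGFBP5 had a log2 fold change of 0.050 in TPM and of 0.0024 without butyrate replicate 2, which never passed. The DEG count of 1, IGFBP3, was 0 without the trend and 0 without a filter. The cause of these differences was not tested.

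With each culture left out in turn, log2 fold changes ranged from 2.14 to 2.38 for IGFBP3, 1.59 to 1.76 for IGF2R, 0.93 to 1.02 for IGF2, 0.43 to 0.53 for IGFBP2, -1.15 to -0.89 for IGF1R, -0.56 to -0.48 for IGFBP4, -0.51 to -0.45 for IGFBP6, -0.18 to 0.0024 for IGFBP5 and 0.065 to 0.14 for IGFBP7. IGFBP7 passed at 0.14 without butyrate replicate 2 (limma, Benjamini-Hochberg adjusted p = 0.034) and at 0.13 without control replicate 3 (limma, Benjamini-Hochberg adjusted p = 0.049), so 4 to 5 members were called higher. The summed IGFBP level was 4518 in control and 4803 after butyrate in TPM, against 3072 and 2998 in FPKM, so its direction turned with this scaling.

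Same-numbered cultures share only a number: their deviations from the group means correlated at 0.0228, -0.0043 and 0.0018, and 1 of 3 butyrate cultures correlated best with its own number. With the replicate number as a block, 56.7% of tested genes were called against 58.4%, and the BH and DEG calls of the members were unchanged. IGFBP6 no longer passed the Bonferroni correction with the block (limma, Bonferroni-adjusted p = 0.11).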

Other observations

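The nearest other named and tested genes on either side of the members were read as well, a choice made after the data were seen. TH, the gene of tyrosine hydroxylase, ends 3.75 kb before IGF2 and rose in FPKM from 0.739 ± 0.281 (SD, n = 3) to 2.08 ± 0.327 (SD, n = 3) (log2 fold change 1.42, BH-adjusted p = 0.0023, limma), while INS, between them, was listed at 0 in all cultures. TBRG4, the nearest such gene after IGFBP3 at 509.4 kb, fell from 66.1 ± 2.19 (SD, n = 3) to 18.9 ± 0.334 (SD, n = 3) (log2 fold change -1.80, BH-adjusted p = 8.8e-08, limma). TOP2A, which ends 19.3 kb before IGFBP4, had the largest fall of these neighbours, with a log2 fold change of -4.26 (BH-adjusted p = 4.6e-08, limma), and TNS4, the nearest after IGFBP4, rose with 0.27. CSAD and SPRYD3, which flank IGFBP6 at 30.7 kb and 6.13 kb, did not pass the test, with log2 fold changes of -0.22 and -0.080 beside the -0.48 of IGFBP6.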
